A study of Mus musculus with 14 samples.

Results

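Amifostine was compared with its vehicle in the bone marrow of male C57BL/6 mice by microRNA (miRNA) array. The comparison used 6 of the series' 14 arrays, namely the 2 bone marrow arrays of amifostine-treated mice and the 4 of mice given phosphate-buffered saline (PBS). They were chosen by the labelled tissue and pretreatment. Amifostine was given at 10 mg/kg into the abdomen (i.p.) 0.5 h before 0 or 8 Gy of gamma radiation, with 1 array at each dose. PBS was given i.p. or into the stomach (i.g.), with 1 array for each route at 0 and at 8 Gy. Mice were 6 to 8 weeks old, marrow was taken 12 h after irradiation, and RNA of 3 mice was pooled for each array. No genetic alteration is labelled, and no other agent is labelled for these 6 arrays. Each array therefore averages 3 animals, and the spread between animals within a pool was not measured.

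Amifostine is a thiol prodrug that tissues dephosphorylate to a free thiol, which scavenges radicals and is used to protect normal tissue from radiation. Marrow is among the most radiosensitive tissues, because it holds dividing progenitors of every blood lineage. A miRNA is a short RNA that lowers the output of messenger RNAs matching its seed, the bases 2 to 8 from its 5′ end, and many miRNAs are tied to a lineage. miR-223 and the miR-23/27/24 clusters are high in myeloid cells, miR-451a in red cell precursors, miR-150 and miR-181 in lymphoid cells, and miR-10, miR-99/100, miR-125, miR-126 and miR-221/222 in stem and progenitor cells.

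Over both doses none of the 371 tested miRNAs differed between amifostine and PBS at an adjusted p under 0.05 by limma (0% called). The lower end of the comparison included progenitor and myeloid miRNAs beside others, among them miR-146b-5p, miR-340-3p, miR-148a-3p and miR-467a-3p. miR-10a-5p was 1.59-fold lower with amifostine, miR-223-3p 1.42-fold lower and miR-27a-3p 1.42-fold lower. Each lay below both PBS arrays of its dose at 0 and at 8 Gy, which the rule for naming miRNAs required. The upper end held miRNAs built on a CA repeat, of which miR-467f was 2.14-fold and miR-669c-3p 2.31-fold higher. It also held miR-3070b-3p, at 3.83-fold from weak signals, and miR-504-3p, which was detected on 2 of 2 amifostine arrays and 1 of 4 PBS arrays. The differences of miR-10a-5p, miR-223-3p and miR-27a-3p were wider at 0 Gy than at 8 Gy. A test of that change did not separate it from 0 after adjustment.

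The sequences below are of the 9 miRNAs named below PBS that RefSeq matched, with list members beside them from the same seed family or cluster and from the miR-99/100 and miR-125 families. They are shown so that shared seeds can be seen. Mature sequences are RefSeq's on GRCm38.p6, which matched 14 of the 24 miRNAs named by the rule over both doses and 290 of the 371 tested. The seed is in capitals.
miR-10a-5p: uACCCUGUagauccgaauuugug
miR-10b-5p: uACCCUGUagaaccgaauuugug
miR-99a-5p: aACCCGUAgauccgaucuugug
miR-100-5p: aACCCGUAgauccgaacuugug
miR-125a-5p: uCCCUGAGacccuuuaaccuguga
miR-125b-5p: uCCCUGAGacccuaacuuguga
miR-221-3p: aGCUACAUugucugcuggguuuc
miR-222-3p: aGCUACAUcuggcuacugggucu
miR-223-3p: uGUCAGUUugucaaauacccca
miR-23a-3p: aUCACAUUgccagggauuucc
miR-27a-3p: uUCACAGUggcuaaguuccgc
miR-27b-3p: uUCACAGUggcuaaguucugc
miR-24-3p: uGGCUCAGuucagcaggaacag
miR-146a-5p: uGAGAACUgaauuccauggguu
miR-146b-5p: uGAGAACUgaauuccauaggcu
miR-148a-3p: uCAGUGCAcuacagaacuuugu
miR-340-3p: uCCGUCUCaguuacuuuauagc

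In that annotation miR-10a-5p lies at chr11:96317186-96317208 within Hoxb3, and miR-10b-5p at chr2:74726074-74726096 within Hoxd3 and Hoxd4. miR-100-5p lies at chr9:41531437-41531458 within the noncoding gene Mir100hg, which also holds 1 of the 2 loci of miR-125b-5p. miR-223-3p lies at chrX:96242884-96242905 within F630028O10Rik. miR-23a-3p, miR-27a-3p and 1 locus of miR-24-3p follow each other between chr8:84208563-84208583 and chr8:84208875-84208896. The other locus of miR-24-3p, at chr13:63301251-63301272, and miR-27b-3p, at chr13:63300760-63300780, lie within Aopep.

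Of the 12 miRNAs named above PBS, 5 belong to a group with a run of CA, and the run rather than the seed is in capitals here for members of that group.
miR-466i-3p: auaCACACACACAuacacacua
miR-466q: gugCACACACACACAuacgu
miR-467f: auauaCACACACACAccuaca
For 3 more of the group the array probe is shown, which is DNA and complementary to the miRNA, with its run of GT in capitals.
miR-466h-3p probe: GTGTGTGTGTgcgt
miR-669c-3p probe: tttacttGTGTGTGTGTg
miR-669p-3p probe: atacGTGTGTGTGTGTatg

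miR-466i-3p lies at chr13:17747552-17747573 within Cdk13, miR-466q at chr3:28419988-28420007 within Tnik, and miR-467f at chr11:69635419-69635439 on the minus strand at Fxr2. The 3 probes map to chromosome 2 in the array design. Of 1679 mature miRNA names that RefSeq gives, 4 (0.238%) held CACACACA, read on the miRNA's own strand. RefSeq matched 3 tested miRNAs with this motif. By probe the motif was more frequent: 16 of the 1247 miRNAs on the array held GTGTGTGT, and 9 of the 371 tested. The repeat miRNAs shown share runs of 10 to 12 bases. RNA of 1 repeat miRNA could therefore bind the probes of another, and their values are not independent.

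Levels are given as log2 of the background-subtracted signal intensity divided by a scale of the array, the 75th percentile among the 296 miRNAs found on all 10 bone marrow arrays, so 0 is that percentile. The amifostine arrays lay on 1 slide with the nilestriol arrays, and the PBS arrays on another slide with the CBLB502 arrays, so amifostine and slide cannot be told apart in this comparison. The scanner software detected 403 miRNAs at 0 Gy and 377 at 8 Gy with amifostine, against 332 to 367 on the PBS arrays. The nilestriol arrays of the amifostine slide had 394 and 380. Median intensity of the negative control spots was 27.6 and 27.1 with amifostine and 32.4 to 38.9 with PBS, and the local background was 20 and 19 with amifostine and 14 to 15 with PBS. The part of these intensity differences in the results below was not tested.

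At an unadjusted p under 0.05, limma's moderated test separated 76 of the 371 miRNAs (20.5%) over both doses, 49 above PBS (13.2%) and 27 below (7.28%). The smallest adjusted p was 0.133. Both amifostine arrays lay above all 4 PBS arrays for 45 miRNAs (12.1%) and below all 4 for 30 (8.09%). The amifostine array lay above both PBS arrays of its own dose, at 0 and at 8 Gy, for 80 miRNAs (21.6%), and below both for 65 (17.5%). Over all tested miRNAs, 202 had a difference above 0 (54.4%) and 169 below (45.6%), with a median of 0.05 on the log2 scale. With the 75th percentile taken over all miRNAs the median was -0.18, and the miRNAs at an unadjusted p under 0.05 were 20 above and 79 below. They were 24 above and 48 below after quantile normalization, and 15 above and 46 below with no scaling. The miRNAs that stood apart also differed in base composition: the median GC content of their probes was 62.1% for those above PBS, 45.8% for those below, and 54.8% for all tested miRNAs. The median PBS signal of their probes also differed, at -3.82 for those above, -2.35 for those below and -2.56 for all tested.

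Stem and progenitor miRNAs lay below PBS. Of 14 listed, 12 were tested, all 12 had a difference below 0, and 5 had an unadjusted p under 0.05. Over all 371 miRNAs, 45.6% had a difference below 0 and 7.28% an unadjusted p under 0.05 below PBS. The amifostine array was below both PBS arrays of its dose at both doses for 8 of the 12, and for 17.5% of all 371. The list's median difference was -0.57, against 0.05 over all 371 miRNAs. In bulk marrow, fewer cells of a type and less RNA per cell cannot be told apart. The list's median stayed below 0 under all 23 alternative settings, between -0.82 and -0.18. Differences below 0 throughout were not limited to this list. They were also seen for let-7 (9 of 9), miR-15/16 (5 of 5), miR-30 (5 of 5), miR-29 (3 of 3) and p53-linked miRNAs (4 of 4). None of those members had an unadjusted p under 0.05.

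miR-10a-5p, which sits in the Hoxb cluster and is transcribed with Hox genes of early progenitors, stood at -1.81 at 0 Gy and -1.01 at 8 Gy with amifostine. On PBS arrays it stood at -0.80 and -0.79 at 0 Gy, i.p. and i.g., and at -0.78 and -0.58 at 8 Gy. Both amifostine arrays were below all 4 PBS arrays, with a difference of -0.67 (SE 0.19, adjusted p 0.149). Its Hoxd counterpart miR-10b-5p stood at -4.85 and -4.03 with amifostine. The PBS arrays had -3.80 and -3.93 at 0 Gy and -3.84 and -3.70 at 8 Gy, again with no overlap, and the difference was -0.62 (SE 0.19, adjusted p 0.151). The pair shares a seed and is near-identical in sequence, so whether the arrays separate them fully is uncertain.

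miR-100-5p, of the miR-99/100 family that is high in stem cells, stood at -5.18 and -5.22 with amifostine, near the floor of -5.31 set for low signals. PBS arrays had -4.53 and -4.14 at 0 Gy and -4.68 and -4.27 at 8 Gy. The arrays did not overlap, and the difference was -0.80 (SE 0.32, adjusted p 0.223). Its relative miR-99a-5p showed a difference of -0.56 (SE 0.28, adjusted p 0.297), with -3.54 and -3.35 on amifostine arrays, below the PBS range of -3.06 to -2.70.

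miR-125 expands stem cells when raised in mouse marrow. miR-125a-5p was not well above background on either amifostine array and was detected on all 4 PBS arrays, at -4.81 to -4.50, so it was at least 1.53-fold lower (adjusted p 0.191). miR-125b-5p had -2.18 and -1.78 with amifostine, against -1.56 and -1.26 at 0 Gy and -1.53 and -1.25 at 8 Gy on PBS arrays. No amifostine value reached a PBS value, but the fit's SE was 0.40 for a difference of -0.58 (adjusted p 0.401).

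miR-126-3p, the endothelial and stem cell miRNA that keeps stem cells quiescent, stood at -1.29 and -0.88 with amifostine. PBS arrays had -0.67 and -0.28 at 0 Gy and -0.40 and 0.20 at 8 Gy. Both amifostine arrays were below all PBS arrays, and the i.g. PBS array was the higher of its pair at each dose. The difference was -0.80 (SE 0.41, adjusted p 0.303).

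miR-221-3p, which represses the stem cell factor receptor Kit, stood at -1.47 and -0.87 with amifostine, against -0.86 and -0.99 at 0 Gy and -0.56 and -0.64 at 8 Gy with PBS. The amifostine array was lower at each dose, while the amifostine value at 8 Gy fell between the PBS values at 0 Gy, and the difference was -0.41 (SE 0.12, adjusted p 0.151). miR-222-3p, its X-linked neighbour with the same seed, had a smaller difference of -0.26 (SE 0.22, adjusted p 0.481), and its array at 8 Gy lay inside the PBS pair.

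**Figure D1:**
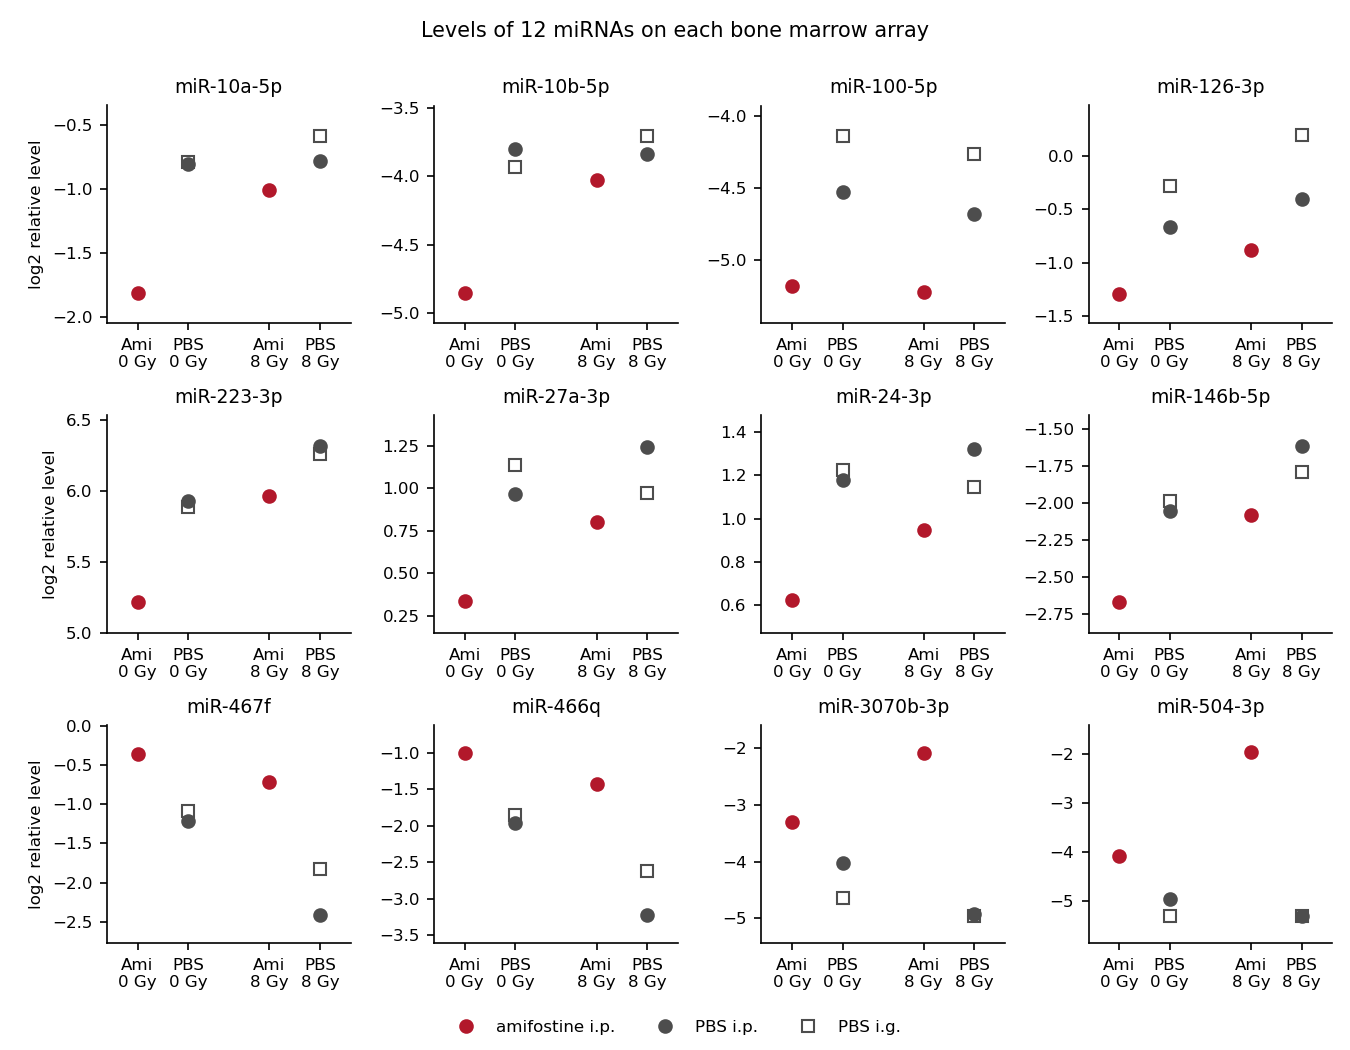
Log2 relative level (vertical axes, each panel with its own range) of 12 miRNAs on the 2 amifostine arrays (red) and the 4 PBS arrays (grey, filled for i.p. and open for i.g.) at 0 and 8 Gy. Each point is 1 array of 3 pooled mice. In the 8 panels from miR-10a-5p to miR-146b-5p the amifostine point is below the PBS pair of its dose, and in the 4 panels of the bottom row it is above it.

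Myeloid miRNAs also lay below PBS. Of 7 listed, 6 were tested, all 6 had a difference below 0 and 4 had an unadjusted p under 0.05, with a median of -0.40. Over all 371 miRNAs the shares were 45.6% below 0 and 7.28% below PBS at an unadjusted p under 0.05. All 5 tested members of the 2 miR-23/27/24 clusters had an unadjusted p under 0.05 and lay beyond both PBS arrays at each dose, with a median of -0.37. That list shares 3 members with the myeloid list.

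miR-223-3p, the granulocyte miRNA that restrains neutrophil production and activation, stood at 5.22 and 5.97 with amifostine, against 5.93 and 5.89 at 0 Gy and 6.32 and 6.26 at 8 Gy with PBS. The amifostine array was lower at each dose, and the amifostine value at 8 Gy was close to the unirradiated PBS values. The difference was -0.51 (SE 0.13, adjusted p 0.133).

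miR-27a-3p, from the cluster that the myeloid factor PU.1 activates, stood at 0.33 and 0.80 with amifostine. PBS arrays had 0.96 and 1.14 at 0 Gy and 1.24 and 0.97 at 8 Gy. There was no overlap, and the difference was -0.51 (SE 0.15, adjusted p 0.149). Its cluster partners differed in the same direction, miR-24-3p by -0.43 (SE 0.14, adjusted p 0.180) and miR-23a-3p by -0.37 (SE 0.13, adjusted p 0.180). The paralogous cluster on chromosome 13 gave -0.34 for miR-23b-3p and -0.32 for miR-27b-3p (adjusted p 0.235 for each).

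Among 5 inflammation miRNAs 4 had a difference below 0, against 45.6% of all 371, and the median was -0.24. Of the 5, 1 had an unadjusted p under 0.05 below PBS, against 7.28% of all 371. That one was miR-146b-5p, which like miR-146a-5p is induced by NF-kappaB and dampens Toll-like receptor signalling. It stood at -2.67 and -2.08 with amifostine, against -2.05 and -1.98 at 0 Gy and -1.61 and -1.79 at 8 Gy with PBS. Both amifostine values were below the PBS range, and the difference was -0.51 (SE 0.12, adjusted p 0.133). miR-146a-5p showed -0.31 (SE 0.28, adjusted p 0.516) and miR-21a-5p, a widely induced inflammatory miRNA, -0.24 (SE 0.14, adjusted p 0.340).

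The other miRNAs below PBS by the naming rule were miR-340-3p at -0.46, miR-148a-3p at -0.38, miR-467a-3p at -0.46, miR-467a-5p at -0.54 and miR-5117-3p at -0.49, with adjusted p between 0.142 and 0.173. miR-148a is known for weakening B cell tolerance in mice. miR-467a-5p was at the floor on both amifostine arrays and was detected on 1 of them.

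Stromal miRNAs had 6 of 9 tested, 5 with a difference below 0 and none at an unadjusted p under 0.05, with a median of -0.36. Over all 371 miRNAs, 45.6% had a difference below 0. miR-199a-3p, a mesenchymal miRNA, had -2.86 and -2.35 with amifostine and -2.27 to -1.73 with PBS, a difference of -0.62 with an SE of 0.48 (adjusted p 0.452). Of 6 neuronal miRNAs 5 were detected on none of the 10 bone marrow arrays, and of 4 muscle miRNAs 3 were tested, with a median of 0.36. With the scanner software's totals the muscle median was -0.79.

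Of the 18 lists, that of the repeat miRNAs had the highest median. It held 8 of the 49 miRNAs above PBS at an unadjusted p under 0.05. The list of miR-297, miR-466, miR-467 and miR-669 families, most of which come from an intron of Sfmbt2, had 61 members on the array and 15 tested. Of the 15, 9 had a difference above 0 and 6 below, 8 had an unadjusted p under 0.05 above PBS and 3 below, and the median was 1.06. Its members parted by probe sequence. Of the 9 whose probe held GTGTGTGT, 8 had a difference above 0, with a median of 1.10 over the 9. The exception was miR-467a-3p. Of the 6 others, 1 was above 0 and 5 below, with a median of -0.34. This division was made after the values had been seen and is given without a test.

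miR-467f stood at -0.36 and -0.72 with amifostine. PBS arrays had -1.22 and -1.09 at 0 Gy and -2.41 and -1.82 at 8 Gy. Both amifostine arrays were above all 4 PBS arrays, and the PBS arrays were lower at 8 Gy than at 0 Gy. The difference was 1.10 (SE 0.28, adjusted p 0.133).

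miR-466q stood at -1.01 and -1.43 with amifostine, against -1.96 and -1.85 at 0 Gy and -3.22 and -2.62 at 8 Gy with PBS. It too had no overlap, and the difference was 1.20 (SE 0.29, adjusted p 0.133). miR-669c-3p gave 1.21, miR-466h-3p 1.10, miR-669p-3p 1.10, miR-466i-3p 1.09 and miR-466f-3p 1.06, each with an SE of 0.28 and an adjusted p of 0.133. miR-669f-3p was at 0.45 (SE 0.20, adjusted p 0.266). miR-466g, of the same family without the probe motif, was at 1.17 (SE 0.25, adjusted p 0.133) and was detected on 2 of 2 amifostine and 3 of 4 PBS arrays.

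The CA-repeat miRNAs had a median 8 Gy minus 0 Gy difference of -0.37 on the amifostine arrays and -0.98 on the PBS arrays. The median amifostine difference was therefore 0.77 at 0 Gy and 1.40 at 8 Gy. Against the same PBS arrays, the 9 had a median difference of 1.07 in CBLB502 arrays, which share the PBS slide, and of 0.43 in nilestriol arrays, which share the amifostine slide. Of the 4 tested miRNAs with the opposite GU repeat, found as ACACACAC in the probe, all had an amifostine difference below 0, with a median of -0.39. Over all 371 miRNAs, 45.6% had a difference below 0. None of the 4 had an unadjusted p under 0.05, and this group too was formed after the values had been seen. miR-574-5p was at -0.44 (SE 0.29, adjusted p 0.385).

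**Figure D2:**
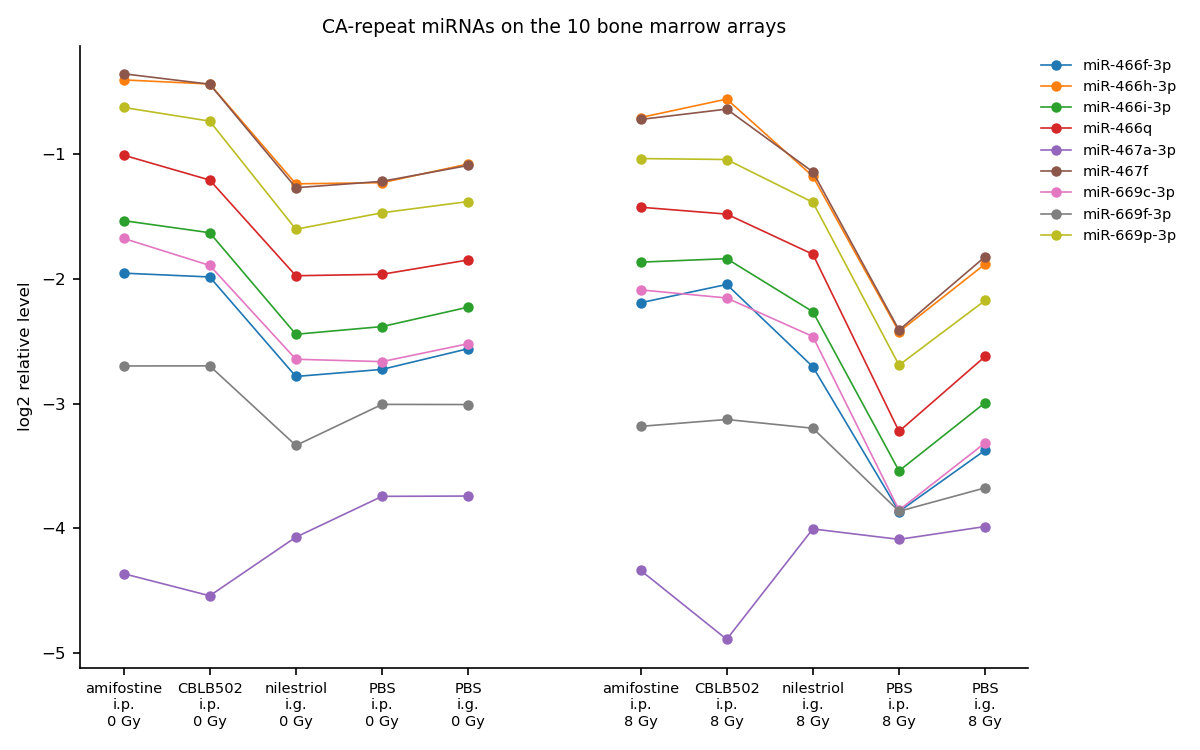
Log2 relative level (vertical axis) of the 9 tested CA-repeat miRNAs on the 10 bone marrow arrays, at 0 Gy on the left and 8 Gy on the right. Each point is 1 array, and lines join the values of a miRNA within a dose. All but miR-467a-3p are higher on the amifostine arrays than on both PBS arrays of the dose, and the CBLB502 arrays have levels near those of amifostine.

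The other miRNAs named above PBS included 2 with weak probe signal. miR-3070b-3p, from the imprinted Dlk1-Dio3 region, stood at -3.31 and -2.08 with amifostine and was detected on both arrays. On PBS arrays it stood at -4.02 and -4.64 at 0 Gy and -4.92 and -4.95 at 8 Gy, detected on 3 of 4. Amifostine and PBS arrays did not overlap, with the wider gap at 8 Gy, and the difference was 1.94 (SE 0.39, adjusted p 0.133).

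miR-504-3p stood at -4.09 and -1.98 with amifostine, whereas 3 of the 4 PBS arrays were at the floor of -5.31 and the i.p. array at 0 Gy was at -4.95. The fitted difference of 2.18 (SE 0.51, adjusted p 0.133) is set by that floor and is no measured size, and it ran from 0.42 to 6.50 over the alternative settings. The signal intensity behind it was 18 and 58.9 with amifostine, against 4.0 to 7.6 with PBS.

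miR-202-3p, a miRNA best known from the gonads, stood at 0.86 and 0.11 with amifostine, against 0.02 and 0.01 at 0 Gy and -0.43 and -0.33 at 8 Gy with PBS. Both amifostine arrays were above all PBS arrays, and the difference was 0.66 (SE 0.16, adjusted p 0.133). miR-878-3p was at 0.98, miR-3058-5p at 0.72 and miR-6388 at 0.69, each with an adjusted p of 0.133. Their amifostine levels ran from -3.92 to -2.94 and their PBS levels from -4.72 to -3.93.

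Of the 98 miRNAs of the Dlk1-Dio3 region on the array, a large imprinted cluster expressed from the maternal chromosome, 8 were tested. All 8 had a difference above 0 and 1 had an unadjusted p under 0.05, with a median of 0.34. Over all 371 miRNAs, 54.4% had a difference above 0 and 13.2% an unadjusted p under 0.05 above PBS. The median of the 8 was 0.61 at 0 Gy and 0.05 at 8 Gy. Against the same PBS arrays it was 0.42 for CBLB502 and 0.31 for nilestriol. Set against nilestriol, on the same slide, amifostine had a median of -0.02 for this list. Its member miR-494-3p stood at 6.98 and 6.39 with amifostine and at 5.60 to 6.39 with PBS, a difference of 0.63 (SE 0.31, adjusted p 0.289). CBLB502 arrays had 6.94 and 7.73.

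The erythroid and lymphoid lists had medians near 0 over both doses. The erythroid median was 0.08 over 6 tested, none at an unadjusted p under 0.05, and it joined -0.16 at 0 Gy with 0.33 at 8 Gy. miR-451a, which red cell precursors accumulate as they mature, stood at 6.57 and 8.23 with amifostine, against 6.89 and 6.60 at 0 Gy and 8.09 and 7.76 at 8 Gy with PBS. It was higher at 8 Gy in both arms, and the difference between arms was 0.07 (95% interval -0.54 to 0.67, adjusted p 0.894). Its sign turned under all 3 other scalings, as did the erythroid median.

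Lymphoid miRNAs had a median of -0.05 over 8 tested, with 1 at an unadjusted p under 0.05 (20.5% over all 371). That was miR-150-3p, the lesser arm of the lymphocyte miRNA miR-150, at 0.72 (SE 0.29, adjusted p 0.223), with all 4 PBS arrays at the floor. The growth-promoting miR-17-92 cluster and its paralogs had a median of -0.08 over 11, and 0.01 after quantile normalization. The let-7 family had -0.11 over 9, with let-7e-5p lowest at -0.65 (SE 0.43, adjusted p 0.385). The miR-15/16, miR-30 and miR-29 families had -0.16, -0.13 and -0.25, and none of their members had an unadjusted p under 0.05.

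p53 activates miR-34a after DNA damage, which makes it a check of the irradiation. miR-34a-5p stood at -2.61 at 0 Gy and -0.33 at 8 Gy with amifostine. With PBS it stood at -2.12 and -2.30 at 0 Gy and at -0.21 and -0.37 at 8 Gy. Every irradiated array was above every unirradiated one, by 2.28 with amifostine and by a mean of 1.92 with PBS. Amifostine minus PBS was -0.40 at 0 Gy and -0.04 at 8 Gy, and the difference between those was 0.36 (adjusted p 0.431). The other p53-linked miRNAs tested included miR-192-5p at -0.23 and miR-194-5p at -0.22, and the list had a median of -0.22 over 4 of 9, with none at an unadjusted p under 0.05.

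**Figure D3:**
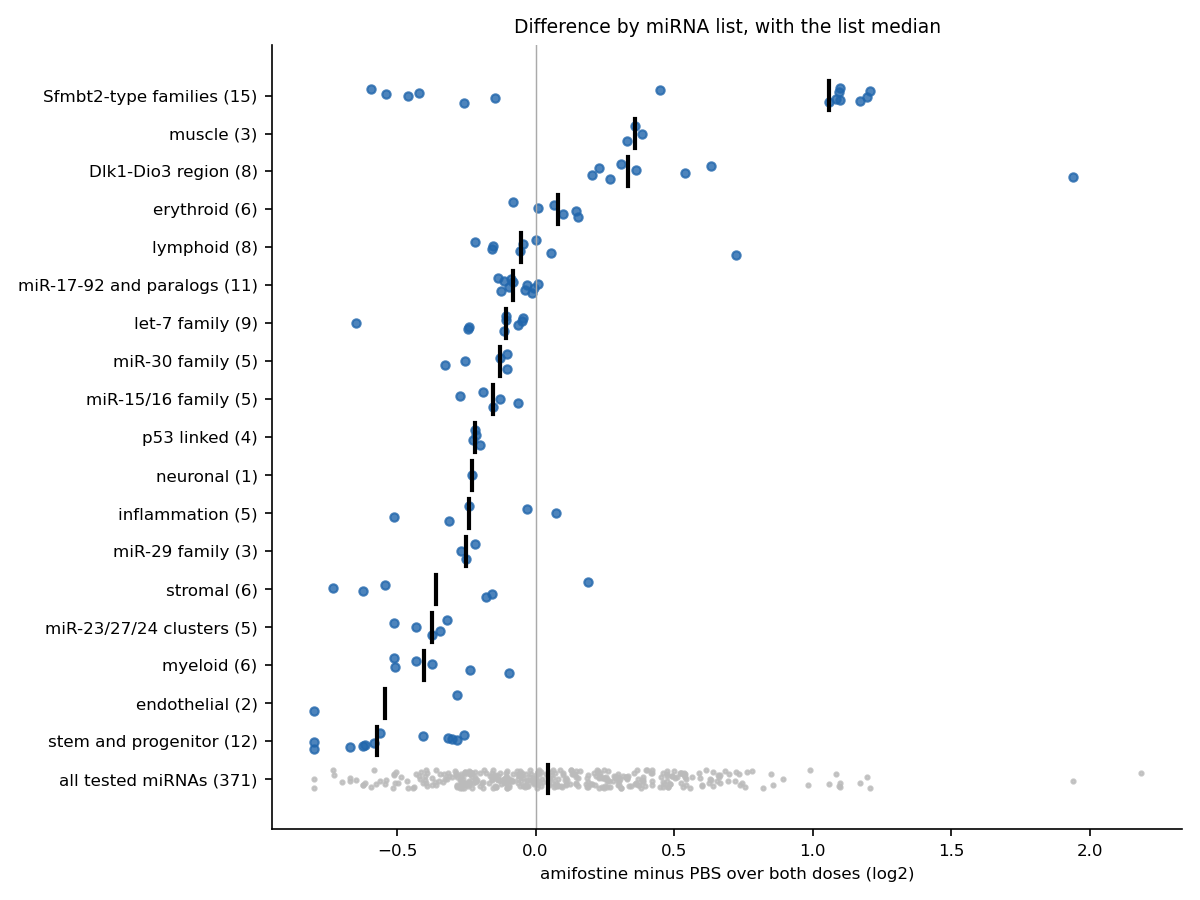
Amifostine minus PBS over both doses (horizontal axis, log2) for the tested members of 18 miRNA lists (blue) and for all 371 tested miRNAs (grey). Each point is 1 miRNA, the black bar is the median, and the number of tested members follows each name. The stem and progenitor list has a median of -0.57 and the Sfmbt2-type list one of 1.06, where its members form a lower and an upper cluster.

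At 0 Gy alone, where 1 amifostine array was set against 2 PBS arrays, no miRNA passed (0%), the smallest adjusted p was 0.0703, and 135 had an unadjusted p under 0.05 (36.4%), 91 above PBS (24.5%) and 44 below (11.9%). At 8 Gy no miRNA passed either, the smallest adjusted p was 0.0700, and 40 had an unadjusted p under 0.05 (10.8%), 33 above (8.89%) and 7 below (1.89%). The spread in these tests came from the 2 PBS pairs, and a lone amifostine array was assumed to vary like them.

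Stem and progenitor miRNAs had a median of -0.68 at 0 Gy, where 8 of 12 had an unadjusted p under 0.05 below PBS. The median was -0.36 at 8 Gy, where 1 of 12 had one. The myeloid list had medians of -0.55 at 0 Gy and -0.26 at 8 Gy, with 4 and 1 of 6. Other lists were also lower at 0 Gy than at 8 Gy: the stromal median was -0.70 at 0 Gy and 0.03 at 8 Gy, that of miR-15/16 -0.42 and 0.13, that of let-7 -0.30 and 0.06, that of miR-17-92 -0.25 and 0.15, and that of miR-30 -0.35 and 0.09. The median interactions of these 5 lists, 0.41 to 0.59, were above those of the stem and progenitor list (0.37) and the myeloid list (0.29), so the change with dose was not limited to those 2 lists. Over all 371 miRNAs the median was 0.02 at 0 Gy and 0.01 at 8 Gy. miR-223-3p was at -0.69 at 0 Gy (adjusted p 0.0703) and -0.32 at 8 Gy (adjusted p 0.322). Over 21 alternative settings its difference ran from -0.94 to 0 at 0 Gy and from -0.87 to -0.11 at 8 Gy. miR-10a-5p was at -1.01 at 0 Gy (adjusted p 0.0703) and -0.33 at 8 Gy (adjusted p 0.518).

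Whether the amifostine difference itself changed with irradiation was tested as an interaction, and no miRNA passed (0%). The smallest adjusted p was 0.242, and 61 had an unadjusted p under 0.05 (16.4%), 16 with a higher difference at 8 Gy (4.31%) and 45 with a lower one (12.1%). The interaction was 0.68 for miR-10a-5p and 0.73 for miR-10b-5p (adjusted p 0.242 for each), and 0.37 for miR-223-3p (adjusted p 0.274). The wider gaps of these 3 at 0 Gy were thus not separated from those at 8 Gy after adjustment.

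Among the positive interactions, miR-504-3p had 2.29, with fitted differences of 1.04 at 0 Gy (adjusted p 0.0820) and 3.33 at 8 Gy (adjusted p 0.0735), where both PBS arrays were at the floor. miR-500-3p had 1.11, with -1.63 and -1.09 on amifostine arrays, against -1.60 and -1.78 at 0 Gy and -2.23 and -2.31 at 8 Gy with PBS. Its amifostine array lay inside the PBS pair at 0 Gy and above it at 8 Gy. miR-30c-1-3p had 1.06 and miR-150-3p 0.62, each with its PBS arrays at or within 0.01 of the floor. Each of these 4 had an adjusted p of 0.242.

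Among the negative interactions, miR-690 stood at 3.47 and 1.88 with amifostine. PBS arrays had 2.63 and 2.69 at 0 Gy and 2.23 and 2.14 at 8 Gy. The amifostine array was above the PBS pair at 0 Gy and below it at 8 Gy, which gave an interaction of -1.10 (adjusted p 0.242). miR-5117-5p had -0.74, miR-3096a-5p -0.77, miR-682 -0.75 and miR-193b-5p -0.96, each with the same adjusted p. The last 2 had weak signals, with intensities on the PBS arrays of 0.3 to 6.8 for miR-682 and 3.7 to 8.0 for miR-193b-5p. Their interactions are therefore set by the floor and are no measured sizes. miR-682 was detected on 2 of 4 PBS arrays. miR-193b-5p was detected on the amifostine array at 0 Gy and on none of the 4 PBS arrays.

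The remaining miRNAs named at a single dose were miR-697 at 0.87 and miR-3473a at 0.79 above PBS at 0 Gy, and miR-467b-5p at -0.62 below (adjusted p 0.0703 for each). At 8 Gy miR-362-3p was at -0.32 (adjusted p 0.399).

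**Figure D4:**
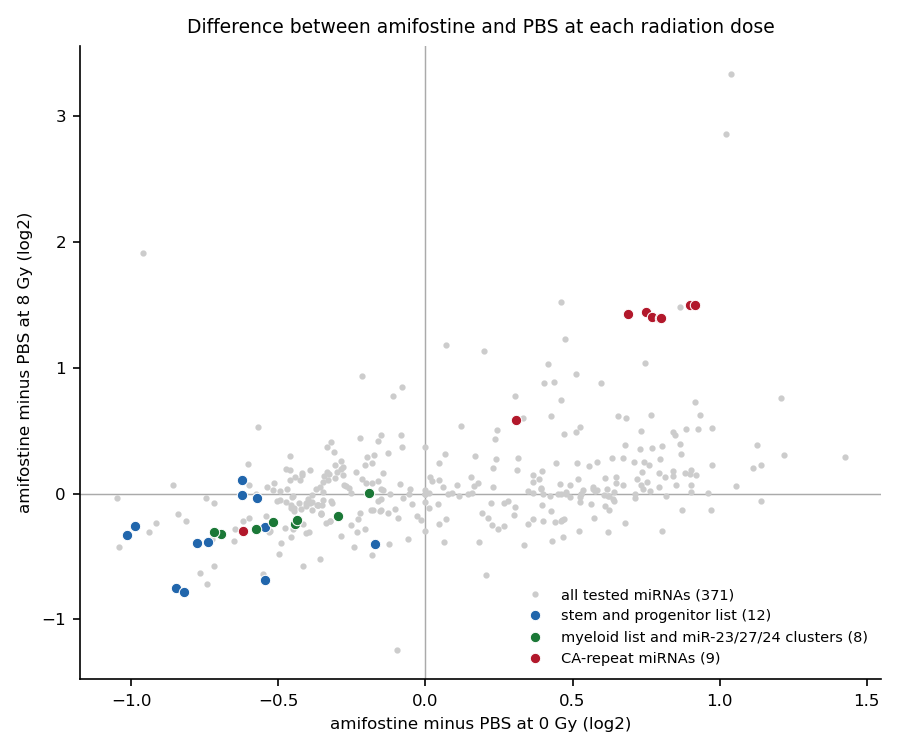
Amifostine minus PBS at 0 Gy (horizontal axis, log2) and at 8 Gy (vertical axis, log2) for the 371 tested miRNAs (grey). Each point is 1 miRNA, from 1 amifostine and 2 PBS arrays at each dose. The stem and progenitor miRNAs (blue) and the myeloid and miR-23/27/24 miRNAs (green) lie left of 0 at 0 Gy, and 8 of the 9 CA-repeat miRNAs (red) lie above 0 at both doses.

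Amifostine was also set against nilestriol, an oestrogen given i.g. at 150 mg/kg 48 h before irradiation, because those 2 arrays were on the amifostine slide. No miRNA passed (0%), the smallest adjusted p was 0.491, and 34 had an unadjusted p under 0.05 (9.16%), 23 above nilestriol (6.20%) and 11 below (2.96%). miR-3070b-3p was 1.73 above nilestriol and miR-504-3p 1.99, while miR-467f was 0.67 above, miR-10a-5p 0.64 below and miR-223-3p 0.43 below (adjusted p 0.491 for each). Other miRNAs named below PBS were closer to nilestriol or above it. miR-27a-3p was at -0.09 and miR-24-3p at -0.04, while miR-221-3p was at 0.33 and miR-146b-5p at 0.10. The stem and progenitor list had a median of -0.27 against nilestriol, the myeloid list -0.06 and the miR-23/27/24 clusters -0.04. Erythroid miRNAs had a median of 0.71, with 3 of 6 at an unadjusted p under 0.05, and miR-451a was at 0.91.

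The 3 drugs were each set against the same PBS arrays, so their differences are given side by side only. Stem and progenitor miRNAs had medians of -0.57 for amifostine, -0.33 for CBLB502, a Toll-like receptor 5 agonist given i.p. at 0.2 mg/kg, and -0.30 for nilestriol. Myeloid miRNAs had medians of -0.40 for amifostine, -0.68 for CBLB502 and -0.26 for nilestriol. The miR-23/27/24 clusters had -0.37 for amifostine, -0.68 for CBLB502 and -0.42 for nilestriol, so their difference from PBS was not particular to amifostine. miR-223-3p was at -0.51 for amifostine, -0.95 for CBLB502 and -0.07 for nilestriol, and miR-10a-5p was at -0.67 for amifostine, -0.90 for CBLB502 and -0.03 for nilestriol. The fitted differences of miR-504-3p, against PBS arrays mostly at the floor, were 2.18 for amifostine, 0.25 for CBLB502 and 0.20 for nilestriol.

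In hypothalamus, with 1 amifostine and 1 i.p. PBS array at each dose on different slides, the differences could not be tested. miR-467f was at -1.39 at 0 Gy and 0.70 at 8 Gy there, miR-223-3p at 0.12 and -0.14, and miR-126-3p at 0.22 and -0.34. None of these miRNAs kept at both doses in hypothalamus the sign it had in marrow, but some others named in marrow did. Among those were miR-148a-3p at -0.09 and -0.15, miR-467a-3p at -0.18 and -0.17, and miR-3058-5p at 0.38 and 1.78.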

How the data were processed

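Each array was hybridised with Cy3-labelled RNA, and the authors extracted spot intensity in Agilent Feature Extraction (version 10.7.1.1 in the headers). The deposited processed intensity had a fitted background surface subtracted, per the file headers. The authors' deposited value table, on a log2 scale with unstated scaling, served as an alternative. Per miRNA, spots were averaged per probe without outlier spots (4.42 to 5.27% per array) and then over probes. Signals were divided by the 75th percentile, per array, of the 296 miRNAs found on all 10 bone marrow arrays, raised to a floor at log2 -5.31 (7.52% of values) and log2-transformed. Detection was the scanner software's call, a total above 3 times its error, and 371 of 1247, detected on at least 50% of the arrays, were tested. Precision is limited by the number of arrays. No arrays shared drug, route and dose, so the spread between replicate pools was not measured. The p-values by dose and for the interaction rest on the differences between i.p. and i.g. PBS arrays. Those over both doses rest on these differences and on how the drug differences varied with dose.

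Tests used limma 3.58.1 (lmFit, eBayes) in R 4.3.3 with Benjamini-Hochberg adjustment over all 371 miRNAs. The comparisons over both doses fitted 4 drugs and radiation dose to 10 arrays (5 residual degrees of freedom), and those by dose and the interaction fitted 8 group means (2 degrees of freedom). PBS routes were joined, with i.p. PBS alone as an alternative. The scripts were tested on simulated data. Figures were drawn with matplotlib.

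Named over both doses were the 12 miRNAs above and the 12 below PBS with the smallest p, among those at an unadjusted p under 0.05 that lay beyond both PBS arrays at each dose. For each dose and the interaction, 5 in each direction were named, and list members beside them. The members and lists were chosen with earlier results of these data known. Intensities of the array software's control spots and the hypothalamus arrays are given as description.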

Additional observations from a re-analysis of the deposited data

How the results depend on the processing

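The count of 0 miRNAs at an adjusted p under 0.05, for amifostine against PBS over both doses and against nilestriol, held under all 13 other settings and all 10 single-array omissions. Without the amifostine array at 0 Gy, 18 miRNAs in place of 76 had an unadjusted p under 0.05 over both doses. The single-array omissions that could be fitted, 9 for each dose and 8 for the interaction, left those counts at 0, the lowest and highest value alike. An amifostine array alone at its dose could not be left out there. Other settings gave more calls from the 2 residual degrees of freedom. At 8 Gy the count was 13 with normexp background, 1 with no scaling, 22 with an offset instead of the floor, 2 with outlier spots kept, 24 with no filter, 6 with the authors' value table, 7 with the scanner software's totals and 16 with the GC trend removed. At 0 Gy it was 22 with normexp, 48 with the offset, 29 with no filter, 15 with the value table, 26 with the scanner totals and 44 with the GC trend removed. For the interaction it was 5 with normexp, 6 with the offset, 39 with no filter, 9 with the value table, 8 with the scanner totals and 2 with the GC trend removed. The cause of these moves was not tested.

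Among the named miRNAs, values over both doses turned in sign for miR-451a, at -0.19 with scaling over all miRNAs and with quantile normalization, -0.058 with no scaling, -0.21 with the value table, and -0.089 with i.p. PBS alone. With 1 array left out it ran from -0.093 without the amifostine array at 8 Gy to 0.23 without the i.p. PBS array at 0 Gy, and was -0.042 without the i.g. PBS array at 8 Gy. With the scanner totals miR-5117-3p was at 0.25 and miR-100-5p at 0.062. With normexp, miR-125a-5p was at 0.021, miR-362-3p at 0.0295 and miR-467a-3p at 0.049 at 8 Gy, miR-193b-5p at -0.077 and miR-682 at -0.086 at 0 Gy, and their interactions were 0.16 and 0.21. The interaction of miR-682 was 0.065 with the offset, 2.38 with the value table and 3.45 with the scanner totals, and its difference at 0 Gy was -0.17 with the scanner totals. There miR-467b-5p was at 0.46 at 0 Gy, and miR-30c-1-3p at -4.41 at 8 Gy with an interaction of -4.02. Slide as a random block could not be fitted, because each drug lay on 1 slide, and i.p. PBS alone left no residual degrees of freedom by dose, so neither was run there.

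No paired analysis was possible because the labels number no replicates, and each combination of drug, route and dose had 1 array. Dim probes limit the rest: 8.18% of the amifostine and PBS values were at the floor, where they have no order.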
